A study of Mus musculus with 32 samples.

Results

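The genes described here are mouse genes that the study's category table for translationally repressed mRNAs lists as targets of 14 microRNAs (miRNAs). The table lists 75 genes under these miRNAs. Leaving out 4 cell migration genes together with Hmga2 and Eif4g1, which were also listed, left 69. Of the 69 genes, 39 had a cDNA clone in the study's clone list and could each be found as 1 of the 15247 rows of the deposited table. Unlike the category table, the clone list holds only clones changed by more than 1.3-fold, so the 39 may not stand for all 69. The other 30 had no clone there and are only named: Actn4, Ap3m1, B3gnt1, Ccnd1, Clpx, Crsp2, Ddx3y, Frap1, Hnrpr, Hook3, Hp1bp3, Ilf2, Kctd4, Lamc1, Macf1, Mbnl1, Mllt3, Pdcd4, Ppp2cb, Pum2, Rab14, Rbms1, Sema6a, Slc25a1, Slc39a8, Tle4, Vil2, Vldlr, Zdhhc7 and Zfp91.

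The 39 genes were selected on the measurement described first below, the ratio of polysomal to total RNA in 3T3-tTA-eIF4E compared with 3T3-tTA cells, because only clones that the study called repressed in this comparison entered its category table. That each of them had a lower ratio in 3T3-tTA-eIF4E cells is therefore how they were chosen. These values are given as a description, with no test. Total RNA was measured on other arrays, and there the lines were compared by a test.

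3T3-tTA-eIF4E is a mouse NIH 3T3 fibroblast line in which withdrawal of tetracycline from the medium switches on the translation initiation factor eIF4E. 3T3-tTA is its parental line, which carries the tetracycline-controlled activator and no inducible eIF4E. Both lines had tetracycline withdrawn for 5 h, so that the parental line controls for the withdrawal. Neither the labels nor the study's methods say whether the inducible line is 1 clone. In each line RNA of heavy polysomes (the last fractions of a sucrose gradient, which hold mRNAs carrying many ribosomes) was hybridized against total RNA on 4 arrays, and total RNA of cells after withdrawal against total RNA of cells kept in tetracycline on 4 more. Every array carried an RNA labelled with Cy3 and another labelled with Cy5, with the dyes exchanged on 2 of the 4. The arrays are named here P1, P3, P5 and P7 (polysomal, 3T3-tTA-eIF4E), P9, P11, P13 and P15 (polysomal, 3T3-tTA), T9, T11, T13 and T15 (total, 3T3-tTA-eIF4E) and T1, T3, T5 and T7 (total, 3T3-tTA). The 4 arrays of a condition stand for 2 RNA extractions, so an SD over them is partly technical. For P1, P3, P5 and P7 the labels give uninduced total RNA as the reference and the study's methods give induced total RNA. The methods were followed. With the uninduced reference instead, the median difference described below was -0.73 in place of -0.78, and that of Itgb1 -0.80 in place of -0.46, of Usp2 -0.23 in place of -0.50 and of Pctk3 -0.48 in place of -0.90.

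eIF4E binds the cap at the 5′ end of an mRNA and brings it to the small ribosomal subunit. A miRNA guides an Argonaute protein to sites in an mRNA, mostly in its 3′ untranslated region, through a short stretch near the miRNA's own 5′ end called the seed. The bound complex lowers translation of the mRNA and speeds its decay. Since one miRNA can pair with many mRNAs and one mRNA with several miRNAs, a gene may stand under more than 1 of the 14 names. Here 27 of the 39 genes stood under 1 miRNA, 8 under 2 and 4 under 3 or more, 61 pairs of a gene and a miRNA in all.

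Mature sequences were taken from RefSeq for GRCm38.p6. They were found by name for 12 of the 14 miRNAs, and not for miR-375 and miR-485-5p. Those shown are, among these 12, of the miRNAs with 5 or more of the 39 genes, and of the miRNAs that lie together on chromosome 12. For miR-485-5p, with 6 genes, there was no sequence to show. Capitals mark the seed, bases 2 to 8. The study's list names an arm for miR-433-3p and miR-485-5p only. For the others the arm that is usually the more abundant is shown, both arms for miR-299, and the a and b forms of miR-376.
mmu-miR-505-3p (chrX:60394416-60394437, minus strand): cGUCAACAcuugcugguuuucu
mmu-miR-204-5p (chr19:22750610-22750631, plus strand): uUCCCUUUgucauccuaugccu
mmu-miR-299a-5p (chr12:109710644-109710665, plus strand): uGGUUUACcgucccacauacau
mmu-miR-299a-3p (chr12:109710676-109710697, plus strand): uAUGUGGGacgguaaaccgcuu
mmu-miR-33-5p (chr15:82198127-82198147, plus strand): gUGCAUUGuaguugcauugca
mmu-miR-21a-5p (chr11:86584120-86584141, minus strand): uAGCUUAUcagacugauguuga
mmu-miR-433-3p (chr12:109591781-109591802, plus strand): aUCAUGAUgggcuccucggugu
mmu-miR-376b-3p (chr12:109723508-109723528, plus strand): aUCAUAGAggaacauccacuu
mmu-miR-376a-3p (chr12:109723824-109723844, plus strand): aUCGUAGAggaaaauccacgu
mmu-miR-134-5p (chr12:109734145-109734166, plus strand): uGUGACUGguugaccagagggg

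No 2 of the 15 mature sequences matched to the miRNA names had the same seed. With the arms taken here, a gene under several of these 12 miRNAs is thus listed under different seeds. Which arm the study's lists used is not known for most of them. Of the 12 miRNAs found by name, 4 (miR-299, miR-433-3p, miR-376 and miR-134) lie within 142386 bases of each other at chr12:109591781-109734166. The miRNAs not found by name were not placed, so others of the list may lie there too. Transcript sequences were not used here, so the sites themselves were not looked for in the 39 genes.

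The induced gene was looked up in total RNA. Over 3 Eif4e clones the mean log2 ratio of total RNA of induced against uninduced cells lay between 2.75 and 3.79 in 3T3-tTA-eIF4E and between -0.021 and 0.057 in 3T3-tTA cells, but these clones' rows were found by that same comparison, so the values are no independent check of the labels, and none was made for the polysomal arrays. Duplicate spots of an array correlated at 0.56 (P13) to 0.92 (P11) across rows. Polysomal arrays of 1 line with opposite dyes correlated at -0.42 to 0.13, and those of different lines with the same dye at 0.30 to 0.82. Arrays thus resembled each other by dye more than by line. Each line had 2 arrays of either orientation, and the direction follows the dyes that the labels state. Of 5 fibroblast genes looked up (Col1a2, Col3a1, Vim, Fn1 and Sparc) none had a clone that could be named, so the cell type was not checked.

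The polysomal/total ratio of the 39 genes was lower in the eIF4E line than in the parental line, with a median log2 difference of -0.78. The differences ran from -1.27 for Cpeb2, a cytoplasmic polyadenylation element binding protein that represses and activates translation, to -0.46 for Itgb1, the integrin β1 subunit. The study's list holds only clones changed by more than 1.3-fold, so all 39 were lower by at least that, as were 9.78% of all rows, and 3 (Cpeb2, Rab6ip1 and Son) by at least 2-fold. The median over all rows was 0.012 and over the 203 other clones of the study's repressed list -0.68. Itgb1's value was no boundary by itself, since 764 rows outside the study's list had a difference as low or lower. The repressed list itself ended at -0.39. Ratios are relative to the other spots of an array. They average over cells, so a lower ratio in every cell cannot be told apart from one in some cells.

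Much of this difference came from 1 array of the parental line. The median log2 ratio of the 39 genes was -0.11, -0.40, -0.30 and -0.18 on P1, P3, P5 and P7. It was 0.038, 0.11 and 0.19 on P9, P11 and P13, and 1.52 on P15. Array P15 therefore stood apart from the other 3 parental arrays, while the 4 eIF4E arrays all lay a little below 0. For 32 of the 39 genes P15 held the highest of the 4 parental values, against 33.9% of all rows. Among the 203 other clones of the repressed list it did so for 130, and P15 took part in selecting both sets. In 25 genes P15 was above the mean of the other 3 parental arrays by more than 1 on the log2 scale, against 18.6% of all rows.

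**Figure D1:**
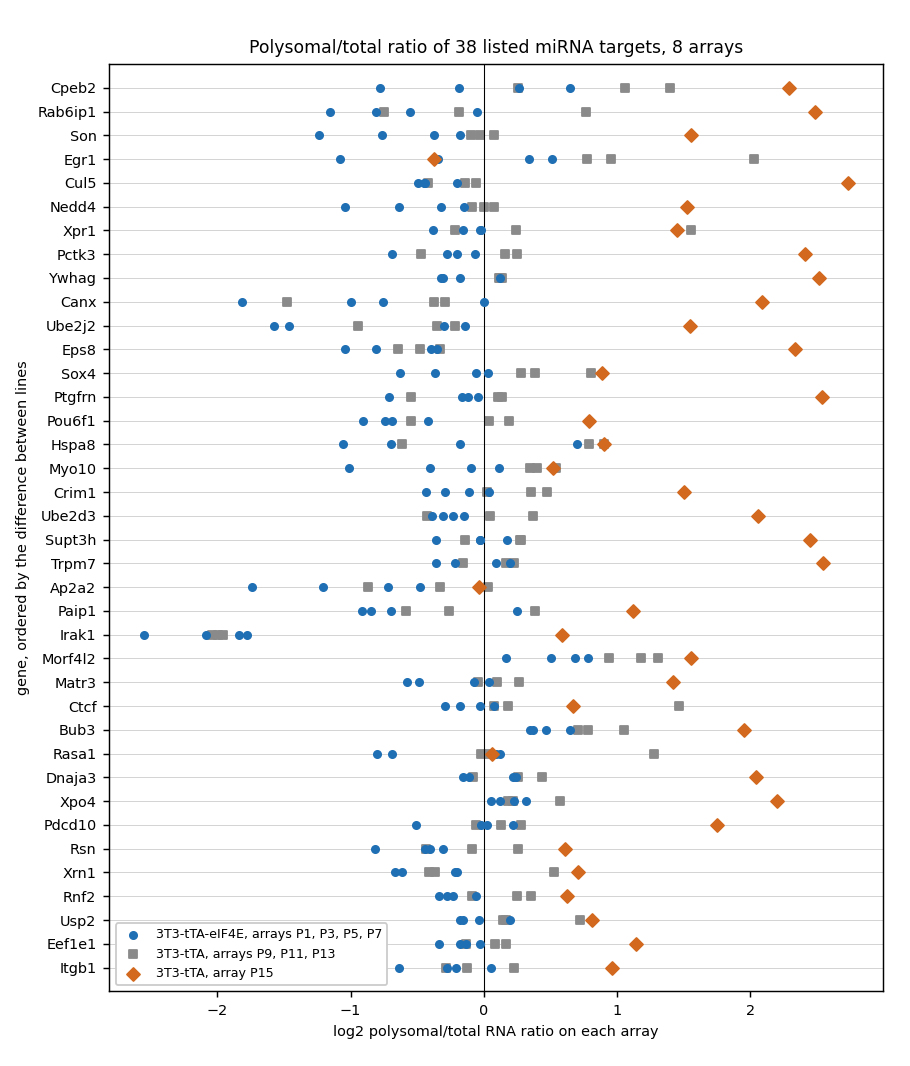
log2 polysomal/total RNA ratio of 38 of the 39 genes on each of the 8 polysomal arrays, 1 line per gene, ordered by the difference between the cell lines. Each circle is a 3T3-tTA-eIF4E array, each square 1 of P9, P11 and P13, and each diamond P15. The diamonds lie to the right of every other point in most lines (P15 is the highest parental array for 32 of all 39 genes), while many squares lie among the circles.

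Without P15, with a dye term to keep the orientations balanced, the median difference was -0.39. It was below 0 in 38 of the 39 genes, against 47.7% of all rows, and 20 of the 39 were lower by at least 1.3-fold, against 7.54% of all rows. The exception was Canx, the endoplasmic reticulum chaperone calnexin, at 0.0020. Leaving out any other array gave medians between -0.91 and -0.66. The other clones of the repressed list had a median of -0.43 without P15. These remaining 7 arrays also took part in the study's selection, so the direction without P15 is no independent measurement.

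**Figure D2:**
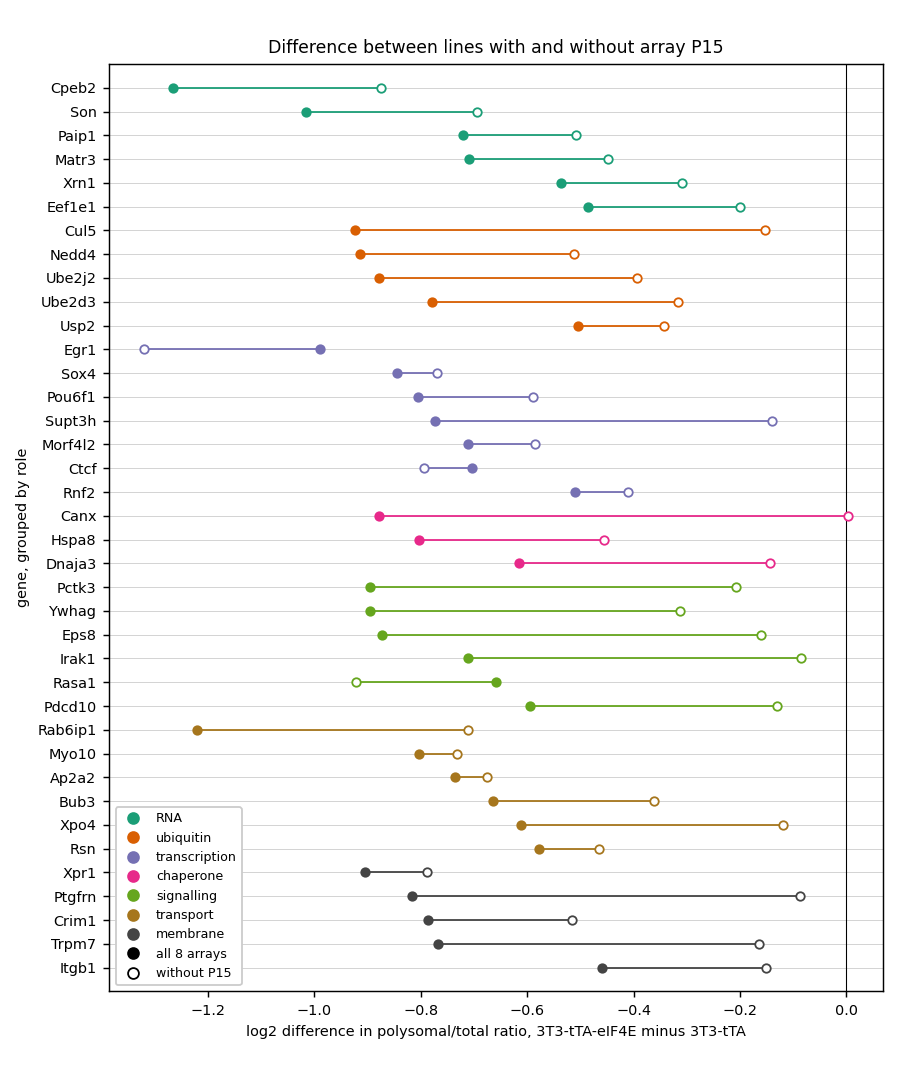
log2 difference in the polysomal/total ratio between the lines (3T3-tTA-eIF4E minus parental) for 38 of the 39 genes, grouped by role. Filled circles use all 8 arrays and open circles leave out P15. Open circles lie nearer 0 for all genes but Egr1, Rasa1 and Ctcf, and that of Canx lies at 0.0020.

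The 39 genes were not evenly spread over the array. The arrays are printed in 48 grids, and spots could be traced to their grid through the scanner values of P3, P7, P11 and P15. Grids 1 to 12 held 0 of the 39 genes, grids 13 to 24 held 3, grids 25 to 36 held 12 and grids 37 to 48 held 24, although each such block held between 3803 and 3817 rows. Among the other clones of the repressed list the same blocks held 18, 20, 64 and 101 of 203 clones. Among the clones of the activated list they held 57, 118, 79 and 47 of 301. Repressed clones, the listed targets included, were thus concentrated in the later grids and activated clones were not.

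On P15 all rows of a grid, whatever their gene, had a median log2 ratio above 0.5 in 8 grids (4, 8, 31, 35, 39, 43, 45 and 46), up to 1.68 in grid 35. These 8 grids held 25 of the 39 genes, or 64.1%, 58.6% of the other repressed clones and 16.7% of all rows. A further 5 genes (Cul5, Pctk3, Pdcd10, Ptgfrn and Supt3h) lay in grid 37. The median P15 value of the listed targets was 1.52 for the 25 inside these grids and 1.35 for the 14 outside them, 5 of which lay in grid 37. For the other repressed clones it was 1.54 inside and 0.40 outside. P15 took part in selecting both sets, so nothing is read from these values. Over all rows the median P15 value was 0.95 inside and -0.055 outside. The 0.5 limit was chosen after the values were seen. On P9, P11 and P13 the highest grid median was 0.17, 0.24 and 0.61.

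**Figure D3:**
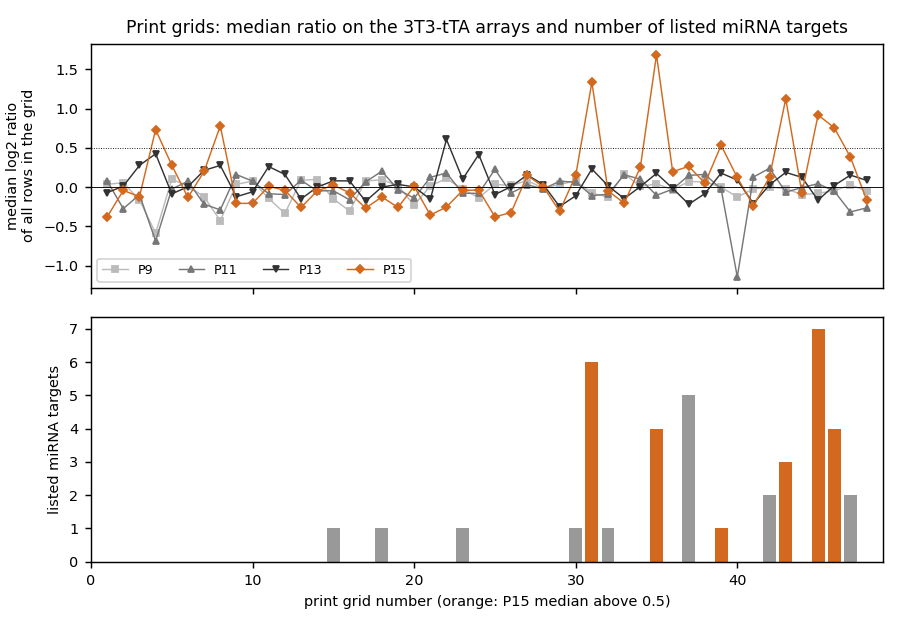
Upper panel: median log2 polysomal/total ratio of all rows in each of the 48 print grids on the parental arrays P9, P11, P13 and P15, with a dotted line at 0.5. Lower panel: number of the 39 genes in each grid, in orange where the P15 median is above 0.5. Grids with a high P15 median hold 25 of the 39 genes, and the first 12 grids hold none.

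Spots printed beside many of the 39 genes were also high on P15. Each gene had 10 to 12 other rows in its own line of spots within its grid, and the median log2 ratio of these neighbours on P15 was 1.11 in the middle of the 39. On P9, P11 and P13 it was -0.036, 0.055 and 0.030. The neighbours' median on P15 was above 0.5 for 28 of the 39 genes, against 19.9% of all rows, and above 1 for 23, against 10.9% of all rows and 43.3% of the other repressed clones. Cul5 stood at 2.73 with neighbours at 2.21, Ywhag at 2.51 with neighbours at 2.11 and Paip1 at 1.12 with neighbours at 2.49. Not every gene followed its neighbours: Cpeb2 stood at 2.29 with neighbours at 0.23, and Xpo4 at 2.20 with neighbours at 0.24. Rasa1 (0.062) and its neighbours (-0.20) were both low on P15. When each array was centred on the median of each such line of spots, the median difference between the cell lines was -0.39, from -1.21 (Egr1) to 0.013 (Eef1e1), and 38 genes stayed below 0. Apart from Eef1e1 the smallest differences were then those of Xpr1 (-0.0011), Bub3 (-0.018), Paip1 (-0.085), Xrn1 (-0.10), Pctk3 (-0.11), Rnf2 (-0.12) and Cul5 (-0.13).

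The P15 values also differed in brightness. On P15 the polysomal RNA carried Cy5, and the median Cy5 foreground of the 39 genes was 4300.5 against 1748.5 over all rows. Their Cy3 foreground, the total RNA, was 496.5 against 636.5. Relative to the local background Cy5 was 10.7-fold and Cy3 1.64-fold for the 39 genes, and 5.19-fold and 2.11-fold for all rows. On P11, another parental array with scanner values, the polysomal RNA carried Cy3, and its median foreground was 441 for the 39 genes against 446.5 over all rows. The total RNA, in Cy5 there, was 800.5 against 1130.5. Cy3 on P11 was near its background, at 1.65-fold for the 39 genes and 1.72-fold for all rows. The total RNA channel of P15 was under 1.5 times its background for 19 of the 39 and for 34.2% of all rows, and the authors' processing leaves that background in. The duplicate spots on P15 differed by more than 1 in 6 of the 39 (Ap2a2, Myo10, Pou6f1, Son, Sox4 and Ube2d3), and in 6.53% of all rows. In 7 genes (Bub3, Rasa1, Myo10, Crim1, Cpeb2, Rnf2 and Ywhag) the local Cy5 background on P15 was above 1000, as in 7.27% of all rows, and for Bub3, Rasa1 and Myo10 the mean background of both spots was above their mean foreground. The part of print position and brightness in the lower ratios was not tested.

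In 7 of the 39 genes the highest eIF4E array lay below the lowest parental array (Bub3, Ctcf, Morf4l2, Myo10, Nedd4, Son and Sox4), against 0.61% of all rows, a count that the selection on this ratio fixes in part. With every array centred on its grid medians, Son and Sox4 were the only 2 of the 7 that still did not overlap, joined by Crim1 and Matr3. The first spot of each pair alone separated 6 genes, 4 of them among the 7, and 79 of all rows. The second spot alone separated 6 genes, with 2 among the 7, and 90 of all rows.

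Of the genes taken by role, 6 act on RNA. Cpeb2 (clone H3012C04) stood under 7 of the 14 miRNAs, more than any other gene. Its log2 ratio was -0.78, -0.19, 0.64 and 0.26 on P1, P3, P5 and P7, and 1.06, 0.25, 1.39 and 2.29 on P9, P11, P13 and P15. The eIF4E arrays were spread over a wide range, and 2 of them (P5 and P7) were above the parental P11. The means were -0.017 ± 0.61 and 1.25 ± 0.84 (SD, 4 arrays each), a 2.40-fold lower ratio in 3T3-tTA-eIF4E cells, and without P15 the difference was -0.87. With the first spots alone the Cpeb2 difference was -1.84, and with the second spots -0.69. Its Cy3 signal was 1.69, 1.07, 0.99 and 1.14 times the local background on P3, P7, P11 and P15, so the fold is imprecise. Son (clone H3094B06), a nuclear speckle protein needed for splicing, had -0.38, -0.18, -0.77 and -1.24 on the eIF4E arrays and -0.10, 0.077, -0.028 and 1.56 on the parental arrays. The highest eIF4E value was just under the lowest parental one, and the parental mean rested on P15. The difference for Son was -1.02 with P15 and -0.69 without it.

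The other 4 genes of this group differed less. Paip1, which binds the poly(A)-binding protein and stimulates initiation, differed by -0.72 (-0.51 without P15), and Matr3, the nuclear matrix RNA-binding protein matrin 3, by -0.71 (-0.45). Xrn1, the exonuclease that degrades decapped mRNA from its 5′ end, differed by -0.54 (-0.31). Eef1e1, a scaffold protein of the aminoacyl-tRNA synthetase complex, had -0.48 (-0.20). All 6 had their highest parental value on P15. Cpeb2, Paip1 and Xrn1 are also the only genes of the 39 on a list of 40 genes of the miRNA pathway, mRNA decay and translational repression. Of that list 2 others had a clone in the study's list: Tnrc6a, the Argonaute partner GW182, was repressed with -0.66 (-0.92 without P15) and Cnot1, the scaffold of the CCR4-NOT deadenylase, activated with 1.02 (0.56). The study's list holds changed clones only, so the rest of the 40 cannot be counted as unchanged.

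Another 6 genes belong to the ubiquitin system and its relatives. Ube2d3 (clone H3082D12), a ubiquitin-conjugating enzyme, stood under 4 miRNAs. It had -0.23, -0.15, -0.39 and -0.30 on the eIF4E arrays and -0.43, 0.046, 0.37 and 2.06 on the parental arrays. The eIF4E values were close together and lay inside the parental range, whose lowest array was P9. Their means were -0.27 ± 0.10 and 0.51 ± 1.08, and the difference of -0.78 was -0.32 without P15. Nedd4 (clone H3104B06), a HECT-type ubiquitin ligase, had -0.32, -1.04, -0.64 and -0.15 on the eIF4E arrays and -0.00073, -0.091, 0.075 and 1.52 on the parental ones. P9, P11 and P13 lay near 0 and P15 far above them, while the eIF4E arrays were all below. Nedd4 differed by -0.91, and by -0.51 without P15.

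The remaining genes of this group also came nearer to 0 without P15. Cul5, a cullin scaffold of ubiquitin ligases, had -0.92 with P15 and -0.15 without it. Ube2j2, a conjugating enzyme of the endoplasmic reticulum, went from -0.88 to -0.39 and Usp2, a deubiquitinating enzyme, from -0.50 to -0.34. All 6 were highest on P15, and the median of the group was -0.85 with it and -0.33 without it.

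The 7 genes for transcription factors and chromatin proteins had a median difference of -0.77 over all arrays and -0.59 without P15. Sox4 (clone H3089F12), a transcription factor of the SOX family, had 0.030, -0.63, -0.37 and -0.056 on the eIF4E arrays and 0.28, 0.38, 0.81 and 0.88 on the parental arrays. Every parental mean was above every eIF4E mean, but the P15 value averaged spots at -0.22 and 1.99, and with the first spots alone the lines overlapped. The means were -0.26 ± 0.30 and 0.59 ± 0.30, and the difference of -0.85 was -0.77 without P15. Morf4l2 (clone H3012A10), a subunit of histone acetyltransferase complexes listed under miR-505 and miR-33, had 0.16, 0.50, 0.78 and 0.68 on the eIF4E arrays and 1.18, 0.94, 1.31 and 1.55 on the parental arrays. All 8 values were above 0, and P15 exceeded the other parental arrays by little. Its difference was -0.71 with P15 and -0.59 without.

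Ctcf (clone H3040A12), the insulator protein that organizes chromatin loops, had -0.027, 0.072, -0.29 and -0.18 on the eIF4E arrays and 0.18, 0.078, 1.46 and 0.67 on the parental arrays. P13 and not P15 was the high array, and P3 and P11 were nearly equal. The difference was -0.70 with P15 and -0.79 without it. Egr1, an immediate early transcription factor, was the only gene below 0 on P15 apart from Ap2a2, at -0.37, with a mean of 1.25 on the other parental arrays. Its difference grew from -0.99 to -1.32 when P15 was left out, the lowest value of the 39 genes in that setting. Pou6f1, a POU domain factor, differed by -0.81 (-0.59 without P15) and Rnf2, the ubiquitin ligase of Polycomb repressive complex 1, by -0.51 (-0.41). Supt3h, a subunit of SAGA-type coactivator complexes, lay in grid 37 and went from -0.77 to -0.14.

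In signalling act 6 of the genes. Rasa1 (clone H3130C04), the GTPase-activating protein p120 that switches off RAS, stood under miR-505, miR-376 and miR-21. It had 0.094, 0.12, -0.69 and -0.80 on the eIF4E arrays and -0.026, 0.037, 1.28 and 0.062 on the parental arrays. P13 alone was high, and the other 3 parental values lay below P1 and P3. The difference of -0.66 became -0.92 without P15. The other 5 were all highest on P15 and lay between -0.31 and -0.085 without it. Eps8, a regulator of actin and of RAC signalling, went from -0.87 to -0.16, Irak1, a kinase of interleukin-1 and Toll-like receptor signalling, from -0.71 to -0.085, and Pctk3 (now Cdk18), a cyclin-dependent kinase of the PCTAIRE group, from -0.90 to -0.21. Pdcd10, a protein mutated in cerebral cavernous malformations, went from -0.59 to -0.13, and Ywhag, the 14-3-3 protein gamma, from -0.89 to -0.31. Irak1 was far below 0 on 7 of the 8 arrays (-2.08, -1.84, -2.55 and -1.78 on the eIF4E arrays, between -2.04 and -1.96 on P9, P11 and P13) and at 0.59 on P15, so that P15 alone lay outside the range of the eIF4E arrays.

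The cytoskeleton, transport and the kinetochore account for 6 more genes. Bub3 (clone H3039A11), a spindle checkpoint protein, had 0.37, 0.35, 0.64 and 0.46 on the eIF4E arrays and 0.70, 1.05, 0.78 and 1.95 on the parental arrays. All 8 values were above 0, with the parental ones higher. Its difference was -0.67, -0.36 without P15, and -0.018 once each array was centred on its lines of spots. Myo10 (clone H3031C11), an unconventional myosin of filopodia, had -0.10, -1.01, 0.11 and -0.41 on the eIF4E arrays and 0.40, 0.54, 0.35 and 0.52 on the parental arrays. The parental means were close together, but the P15 value averaged spots at -0.28 and 1.32. Myo10 differed by -0.80 with P15, -0.73 without it and -0.16 with lines of spots centred.

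The other genes of this group ranged widely. Rab6ip1 (now Dennd5a), which binds the Golgi GTPase RAB6, had the second lowest difference of the 39, -1.22, with -0.71 without P15 and -0.31 with lines of spots centred. Ap2a2, a subunit of the clathrin adaptor AP-2, had discordant duplicate spots on P15 (0.77 and -0.85) and differed by -0.74 (-0.68 without P15). Rsn (now Clip1), which tracks growing microtubule ends, had -0.58 (-0.46), and Xpo4, a nuclear export receptor, -0.61 (-0.12).

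Membrane proteins are encoded by 5 of the genes and chaperones by 3. Crim1 (clone H3060A05), a transmembrane protein that binds bone morphogenetic proteins, stood under 4 miRNAs. It had 0.036, -0.29, -0.11 and -0.43 on the eIF4E arrays and 0.019, 0.35, 0.48 and 1.501 on the parental arrays. The lines overlapped only between P1 and P9, and P15 was again highest. The difference was -0.79 with P15 and -0.52 without it. Xpr1, a phosphate exporter, differed by -0.90 (-0.79 without P15, -0.0011 with lines of spots centred), while Ptgfrn, which associates with tetraspanins, Trpm7, an ion channel with a kinase domain, and Itgb1 went from -0.82 to -0.088, from -0.77 to -0.16 and from -0.46 to -0.15. Among the chaperones Canx went from -0.88 to 0.0020, Dnaja3, a mitochondrial DnaJ protein, from -0.62 to -0.14, and Hspa8, the constitutive heat shock protein HSC70, from -0.80 to -0.46. For Dnaja3 the arrays with polysomal RNA in Cy3 alone gave a higher ratio in 3T3-tTA-eIF4E cells, by 0.14.

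Grouped by miRNA, the lists held 2 (miR-376 and miR-331) to 10 (miR-505) of the 39 genes, and their median differences ran from -0.99 (miR-183) to -0.58 (miR-433-3p). miR-505 had a median of -0.75 over Canx, Cpeb2, Crim1, Morf4l2, Paip1, Pdcd10, Rasa1, Son, Ube2d3 and Xrn1. miR-204 had -0.80 over Ap2a2, Eef1e1, Eps8, Myo10, Rab6ip1, Xrn1 and Ywhag. The miR-505 list ran from Cpeb2 to Xrn1 and the miR-204 list from Rab6ip1 to Eef1e1. miR-299 had -0.86 over Cpeb2, Ctcf, Cul5, Sox4, Ube2d3 and Ube2j2. miR-485-5p had -0.81 over 6 genes, among them Ctcf, Dnaja3, Pctk3, Pou6f1 and Ywhag. miR-21 (Crim1, Matr3, Rasa1, Trpm7 and Ube2d3) had -0.77 and miR-33 (Cpeb2, Hspa8, Morf4l2, Ptgfrn and Ube2d3) -0.80.

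The remaining 8 lists held 3 genes or fewer. They were miR-183 (Cpeb2, Egr1 and Itgb1), miR-134 (Cpeb2, Irak1 and Itgb1), miR-375 (Cpeb2, Supt3h and Xpr1), miR-503 (Cpeb2, Usp2 and Xpo4), miR-433-3p (Cul5, Rnf2 and Rsn), miR-216 (Bub3, Crim1 and Matr3), miR-376 (Nedd4 and Rasa1) and miR-331 (Crim1 and Usp2). Over all 8 arrays Cpeb2 had the lowest difference in each of the 7 lists that held it. Without P15 Rasa1 was lower in the miR-505 list and Egr1 in the miR-183 list. The Cpeb2 polysomal/total ratio difference was -0.20 on the Cy3 arrays alone and -2.33 on the Cy5 arrays alone. Without P15 the medians ran from -0.87 (miR-183) to -0.15 (miR-134), and the order of the lists changed. The lists of the miRNAs found together on chromosome 12, whose sequences are given above, had medians of -0.86 (miR-299), -0.79 (miR-376), -0.71 (miR-134) and -0.58 (miR-433-3p), spread over most of the range of all 14. As miR-375 and miR-485-5p were not placed, this set may not be complete. Since the lists share genes and few hold more than 5, their medians are not compared by a test.

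**Figure D4:**
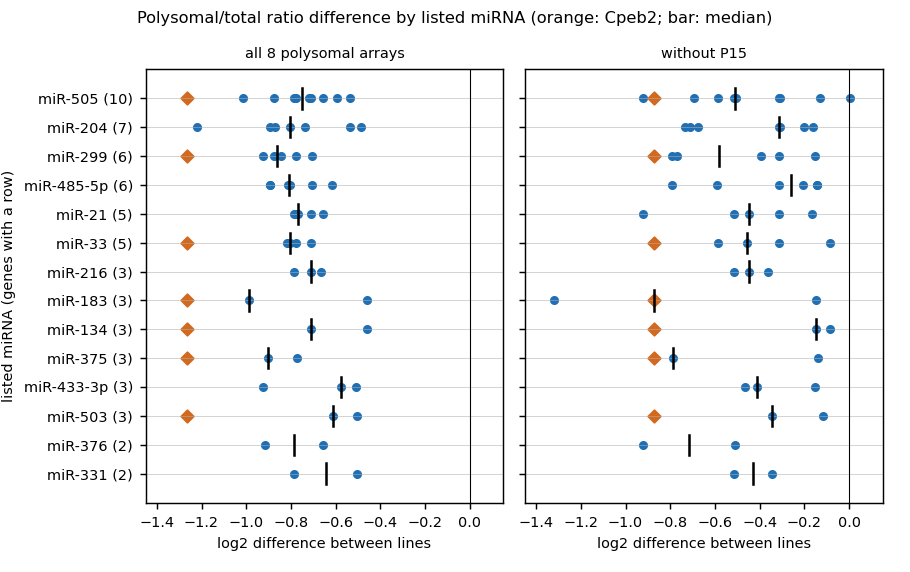
log2 difference in the polysomal/total ratio between the lines (3T3-tTA-eIF4E minus parental) for the genes under each of the 14 miRNAs, with the number of genes in parentheses. Points are genes, diamonds Cpeb2 and bars the median, over all 8 arrays (left) and without P15 (right). Medians lie between -0.99 and -0.58 on the left, and between -0.87 and -0.15 on the right.

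The study's category table for activated mRNAs lists 5 targets of a further miRNA, miR-208, and 4 of them had a clone in the activated list. Their differences were 0.58 for the homeobox factor Meis1, 0.73 for the RNA-binding protein Rod1, 0.70 for the endothelin receptor Ednrb and 0.35 for the histone variant H2afz. Without P15 they were 0.40, 0.47, 0.46 and 0.45. None of these 4 was highest on P15 among the parental arrays. These genes too were selected on the ratio they are described by.

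Total RNA answers whether the transcripts responded differently in the 2 lines to withdrawal of tetracycline, on arrays other than those that chose the genes. A difference between the lines already present before withdrawal does not show in it. The labels do not say whether these arrays share RNA extractions with the polysomal ones. The median difference in the log2 response, 3T3-tTA-eIF4E minus 3T3-tTA, was -0.052 over the 39 genes, -0.025 over the other repressed clones and -0.0097 over all rows. It was below 0 in 29 of the 39, against 53.2% of all rows. Differences ran from -0.32 (SE 0.37) for Pctk3 to 0.31 (SE 0.34) for Canx, and no gene reached 1.3-fold, which 1.4% of all rows did. By limma on extraction means none of the 39 had an adjusted p under 0.1 (0.0% of all rows did), and none had an unadjusted p under 0.05, against 0.446% of all rows. The methods' SAM called none of the 39 either. Over all 15247 rows it called 23 to 56, depending on how arrays were paired, or 4 with false calls estimated by their mean. Limma on arrays called none of the 39 and 3 of all rows.

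Ube2d3 had the smallest p of the 39 genes. Its log2 response was -0.22, -0.37, -0.32 and 0.24 on T9, T11, T13 and T15, and 0.023, 0.25, 0.046 and -0.031 on T1, T3, T5 and T7. T9, T11 and T13 were below all parental arrays, and T15 lay among those. The difference was -0.24 (SE 0.13), with an adjusted p of 1.00 and an unadjusted p of 0.116 by limma. Xrn1 followed with -0.22 (SE 0.16) and Supt3h with 0.22 (SE 0.17). In none of the 39 genes were the arrays of the lines separate, against 0.918% of all rows. On simulated total RNA arrays with the spread of these, the same test called 29 of 50 rows with a log2 change of 1. Smaller changes were not simulated. On the real arrays the test called none of the 15247 rows, not even the 3 Eif4e clones with differences of 2.69 to 3.75. The simulated noise was independent between arrays, so the simulated rate may not hold for the real ones.

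**Figure D5:**
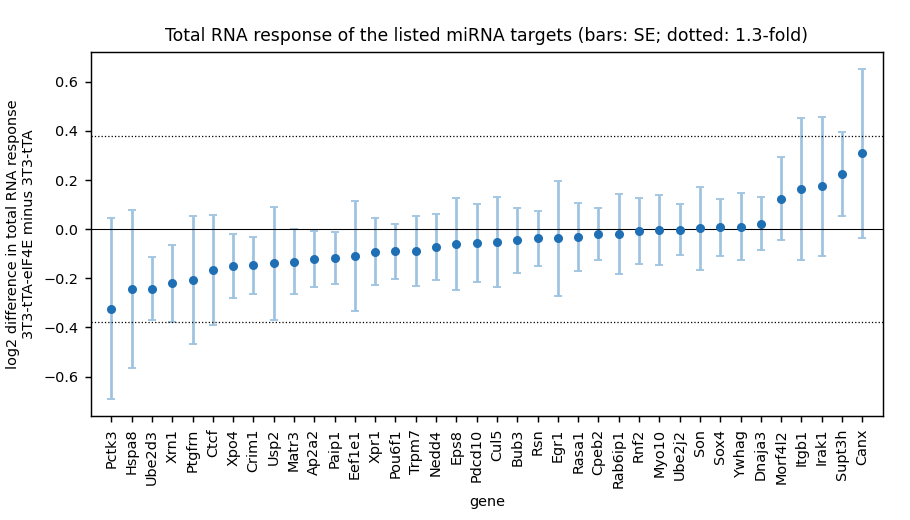
log2 difference in the total RNA response to withdrawal of tetracycline, 3T3-tTA-eIF4E minus 3T3-tTA, for 38 of the 39 genes in order of size. Points are estimates by limma on extraction means, bars the SE, and dotted lines a change of 1.3-fold. All 38 points lie between the dotted lines, from -0.32 for Pctk3 to 0.31 for Canx.

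The genes under 3 or more miRNAs had total RNA differences of -0.018 (SE 0.11) for Cpeb2, -0.15 (SE 0.12) for Crim1 and -0.032 (SE 0.14) for Rasa1, beside Ube2d3. Within 3T3-tTA cells alone, 4 of the 39 had an unadjusted p under 0.05 for the response to withdrawal, against 4.16% of all rows. These were Matr3, Xrn1, Rasa1 and Xpr1, with mean log2 responses of 0.31, 0.32, 0.26 and 0.26 and adjusted p of 0.897 or more. Within 3T3-tTA-eIF4E cells none of the 39 did, against 3.31% of all rows. Array T13 had the widest spread of the total RNA arrays (SD 0.55 across rows), with Canx at 1.90, Itgb1 at 1.42 and Usp2 at -1.34.

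A feature of the genes that neither the ratio nor the list used is the base composition around their start sites. In RefSeq promoter sequences (GRCm38.p6), 32 of the 39 genes had an entry. Their median GC content was 71.0% over the first 50 bases of the transcript, with quartiles at 66% and 78.2%. Among 160 genes of the other repressed clones it was 63.5%, with quartiles at 58.0% and 70.0%, and over all 27025 genes with an entry 56.0%. Over the whole 300-base window the medians were 64.5%, 60.3% and 52.8%, in the same order. In both windows the quartile ranges of the listed targets and the other repressed genes overlap. For the activated clones fewer than 80% of the genes had an entry (225 of 290). Their median was 64% over the first 50 bases, with quartiles at 58% and 72%, and 60.3% over the 300-base window. The activated and the other repressed clones thus had similar medians, both above that of all genes with an entry. This comparison was chosen after the values were seen and has no test.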

How the data were processed

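Spotted 15K mouse cDNA arrays carried every clone as 2 spots. The authors scanned them with GenePix, normalized each whole array by lowess in limma without background subtraction, and deposited log2 ratios per spot, given for 16 arrays as 32 samples. Scanner intensities that they deposited for P3, P7, P11 and P15 gave spot positions and brightness. The 2 spots were averaged, and ratios were turned so that polysomal (or induced) RNA is the numerator. No counts exist, so the number of arrays limits the precision. The genes came from the study's clone list and category table, and 31 were named by accession and 8 by symbol. For 1 of the 39 genes, counted in the totals, no values are reported here. Members and lists were chosen with earlier results of these data known.

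Polysomal ratios are differences of means over 4 arrays, with a dye term where an array was left out. Total RNA was tested by limma 3.58.1 (R 4.3.3) on extraction means with Benjamini-Hochberg adjustment over 15247 rows. Because the labels do not say which arrays share an extraction, all 4 assignments were fitted and the largest p kept. Calls were rows changed at least 1.3-fold with an adjusted p below 0.1. The test was checked on simulated data, but on the real arrays it did not call the Eif4e clones. The p-values measure the spread between extractions, which may be technical. The rule for named genes took all 39, with array values for those under 3 or more miRNAs and those whose polysomal arrays did not overlap. SAM, the methods' test, was rewritten here with both lines' arrays paired, and its false discovery rate was estimated by the median and, after counts were seen, by the mean. Gene roles, the centring by grid or line of spots and the base composition were also chosen after values were seen.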

Additional observations from a re-analysis of the deposited data

Results flagged for a closer look

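Among 156 groups of 4 array values (39 genes, 4 conditions), 18 held 1 array far from the other 3, its gap to the nearest a larger part of the group's range than Dixon's critical value for 4 samples allows. Chance marks about 1 in 20 groups, but the polysomal values chose the genes, so that rate does not hold for them. The same share over all rows was not counted. Of the 18, 9 lay on P15. On that array Cul5 stood at 2.73 (log2), Trpm7 at 2.54, Ywhag at 2.51 and Supt3h at 2.45, above their other parental arrays. Eps8 at 2.34, Son at 1.56, Nedd4 at 1.52 and Irak1 at 0.59 did so too.

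On P13 Rasa1 stood high at 1.28 and Hspa8 low at -0.62. In total RNA, Ap2a2 (0.21), Ptgfrn (-1.23) and Rsn (0.084) stood apart on T15, Rnf2 on T13 (0.48) and Nedd4 on T11 (-0.33). Paip1 (-0.051) and Pdcd10 (0.61) stood apart on T1.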

How the results depend on the processing

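No paired analysis was possible by RNA extraction, because the labels do not say which arrays share one. SAM was run paired by dye instead, over every pairing of arrays with the same dyes. The median polysomal difference of -0.78 ranged from -0.91 to -0.39 when 1 array was left out (-0.39 without P15). It was -0.33 on the arrays with polysomal RNA in Cy3 alone, -1.11 on those with it in Cy5 and -0.39 with each line of spots centred. Reversed values were the Canx polysomal/total ratio difference without P15 (0.0020, in a range from -1.42 without P13), Dnaja3 on the Cy3 arrays alone (0.14) and Eef1e1 with lines of spots centred (0.013). The count of lower genes stayed at 38 or 39. Separate genes numbered 7 to 13 when 1 array was left out (11 without P1, 12 without P9, 13 without P11, 12 without P13), as the count over all rows went from 93 to between 201 and 257 in these 4 settings, and 4 with grids centred (84 rows). Genes highest on P15 numbered 18, not 32, with lines of spots centred.

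In total RNA none of the 39 was called in any setting, and the smallest adjusted p by limma was 0.996. The median of -0.052 was -0.096 with arrays scaled alike, -0.00085 with grids centred, 0.0092 with lines of spots centred and -0.00054 on the Cy5 arrays alone. Of 585 gene values under 15 other settings, 95 changed sign, none of them called. Calls over all rows numbered 2 with the second spot alone, 3 with arrays as replicates, 0 to 4 with 1 array left out (1 without T3, 2 without T11, 4 without T13, 3 without T15), and 56, 52, 38 and 23 by SAM over 4 pairings, or 4 in each by its mean estimate. An unadjusted p under 0.05 was reached by Ube2d3 with the first spot alone and by Supt3h with lines of spots centred, 1 of the 39 each, and by 0 or 1 with 1 array left out (Supt3h without T1, Ube2d3 without T15). Over all rows 68 reached it, 129 with arrays scaled alike, 224 with arrays as replicates and 219 to 468 with 1 array left out, fits that take arrays as replicates.

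The channel of lower signal limits the ratios: the Cy3 signal was under 1.5 times its background for 19 of the 39 genes on P15 and 24 on P7, against 34.2% and 45.5% of all rows.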
